A study of Homo sapiens with 6 samples.

Results

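The genes described here are 9 genes of the p53 pathway, the sestrin family and the GADD45 family: MDM2, CDKN1A, PLK2, GADD45A, GADD45B, TP53INP1, SESN1, SESN2 and SESN3. They were chosen by symbol, with earlier results of these data known, from a table of 54261 gene symbols, and all 9 had a row in it. The table holds RNA sequencing counts of T24, an established human bladder cancer cell line, in 6 libraries. In 3 control libraries the cells carried the NC lentivirus (HBLV-ZsGreen-PURO), and in 3 knockdown libraries they carried the lentivirus with MTHFD2-shRNA2, a short hairpin RNA against the mitochondrial folate enzyme MTHFD2. Both viruses carry ZsGreen and puromycin resistance, both groups were selected with puromycin as stable lines, the name of the NC virus lists no hairpin, and the knockdown rests on a single hairpin. The labels number the libraries 1 to 3 in each group without saying whether they came from separate cultures, so the spread between them may be technical.

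The transcription factor p53 is activated by DNA damage and other stresses and switches on genes of cell cycle arrest, repair and death, MDM2 among them, whose protein marks p53 for destruction. Sestrins restrain mTORC1, the growth kinase complex that senses amino acids, and SESN2 is also raised by the stress factor ATF4. The small GADD45 proteins bind stress kinases and cell cycle proteins and are induced by p53, NF-kB and other stress factors.

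After MTHFD2 knockdown the 9 genes did not move as a block. TP53INP1 rose 2.93-fold, while GADD45A fell to 0.427, PLK2 to 0.52, SESN2 to 0.59, GADD45B to 0.674 and CDKN1A to 0.76 of the control level. MDM2, the gene that feeds back on p53, was at 1.04 of the control level and did not pass the test. A filter on low counts kept 8 of the 9 genes, each with at least 87 counts in every library, and left out SESN3. The kept genes were tested together with all others by the quasi-likelihood test of edgeR with Benjamini-Hochberg adjustment. At an adjusted p under 0.05, 1 of the 8 rose and 5 fell. Of all 13896 genes tested, 17.3% passed, with 9.71% higher and 7.58% lower in the knockdown libraries. The median log2 fold change (knockdown over control, as everywhere below) was -0.48 over the 8 genes and 0.01 over all genes tested. Since the genes were chosen with earlier results known, these differences from all genes are no test of the group. With knockdown replicate 2 alone against the controls, the 6 called genes kept their direction, from -1.64 for GADD45A to 1.87 for TP53INP1. The libraries of the 2 groups did not overlap for 7 of the 8 genes, the exception being MDM2, and for 39.1% of all genes tested.

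Library totals ran from 17801990 to 19978392 counts. MTHFD2 itself had counts of 3241, 3613 and 3417 in control replicates 1 to 3 against 538, 667 and 686 in knockdown replicates 1 to 3, a log2 fold change of -2.51 ± 0.13 (SE; edgeR adjusted p = 1.8e-06). Of 12 fibroblast markers, none was without counts in every library, 5 rose by the edgeR test, and their summed level was 139 to 157 CPM (counts per 1e6 counts on TMM-scaled totals) in the control and 120 to 169 CPM in the knockdown libraries. FBLN1 alone was at 137 ± 10.6 and 111 ± 5.99 CPM in these groups (SD, n = 3). The other 11 markers, summed apart after their values were seen, had a sum of 7.58 to 10.3 CPM across the controls, 51.1 and 42.7 CPM in knockdown replicates 1 and 3, and 12.5 CPM in knockdown replicate 2. The counts of called genes and the fold changes of the named genes that were tested were therefore also computed with knockdown replicate 2 alone against the controls, taking its spread to be like that of the controls. This was not done for SESN3, for the ratios and shares between genes, for list medians or for genes chosen after their values were seen. The 8 epithelial markers, led by the keratin genes KRT8 and KRT18, both of which fell, summed to 2090 to 2500 CPM in control and 984 to 1300 CPM in knockdown cells, while CDH1 and EPCAM were near the limit of 0.149 to 0.171 CPM that a count of 0 allows. The 8 urothelial markers summed to 20.9 to 22.5 CPM in the control and 20.2 to 23.4 CPM in the knockdown libraries, most of it PPARG. Among them UPK3A and KRT20 had no count, and UPK1A rose from a low level (log2 fold change 1.72 ± 0.40 SE, edgeR adjusted p = 0.0141). The more abundant UPK1B leaned the other way but did not pass (log2 fold change -0.45 ± 0.2 SE, edgeR adjusted p = 0.141). Knockdown took mean UPK1B from 4.92 down to 3.61 CPM, without overlap between the groups. Leukocyte markers included CD3D and NKG7, which had no count, and the whole list of 12 summed to 1.79 to 3.88 CPM. The 8 endothelial markers summed to 23.6 to 28 CPM in the control and 22.9 to 27.9 CPM in the knockdown libraries, and CDH5 fell (log2 fold change -1.18 ± 0.34 SE, edgeR adjusted p = 0.0333). Of 8 kidney, embryonic or neural markers, led by PAX2, the sum was 87.2 to 94.3 CPM in the control and 77.8 to 96.4 CPM in the knockdown libraries. MAP2 and SOX2 rose from low levels (log2 fold change 2.60 ± 0.38 and 1.34 ± 0.36 SE, edgeR adjusted p = 0.00145 and 0.0257), and INA, STMN2 and GFAP had no count. The part of these markers in the results was not tested. In bulk RNA, fewer cells that express a gene and less RNA per cell cannot be told apart. Over all genes, 2402 were called. Leaving out control replicate 1 gave 1003, leaving out control replicate 3 gave 986 and leaving out knockdown replicate 2 gave 1469.

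**Figure D1:**
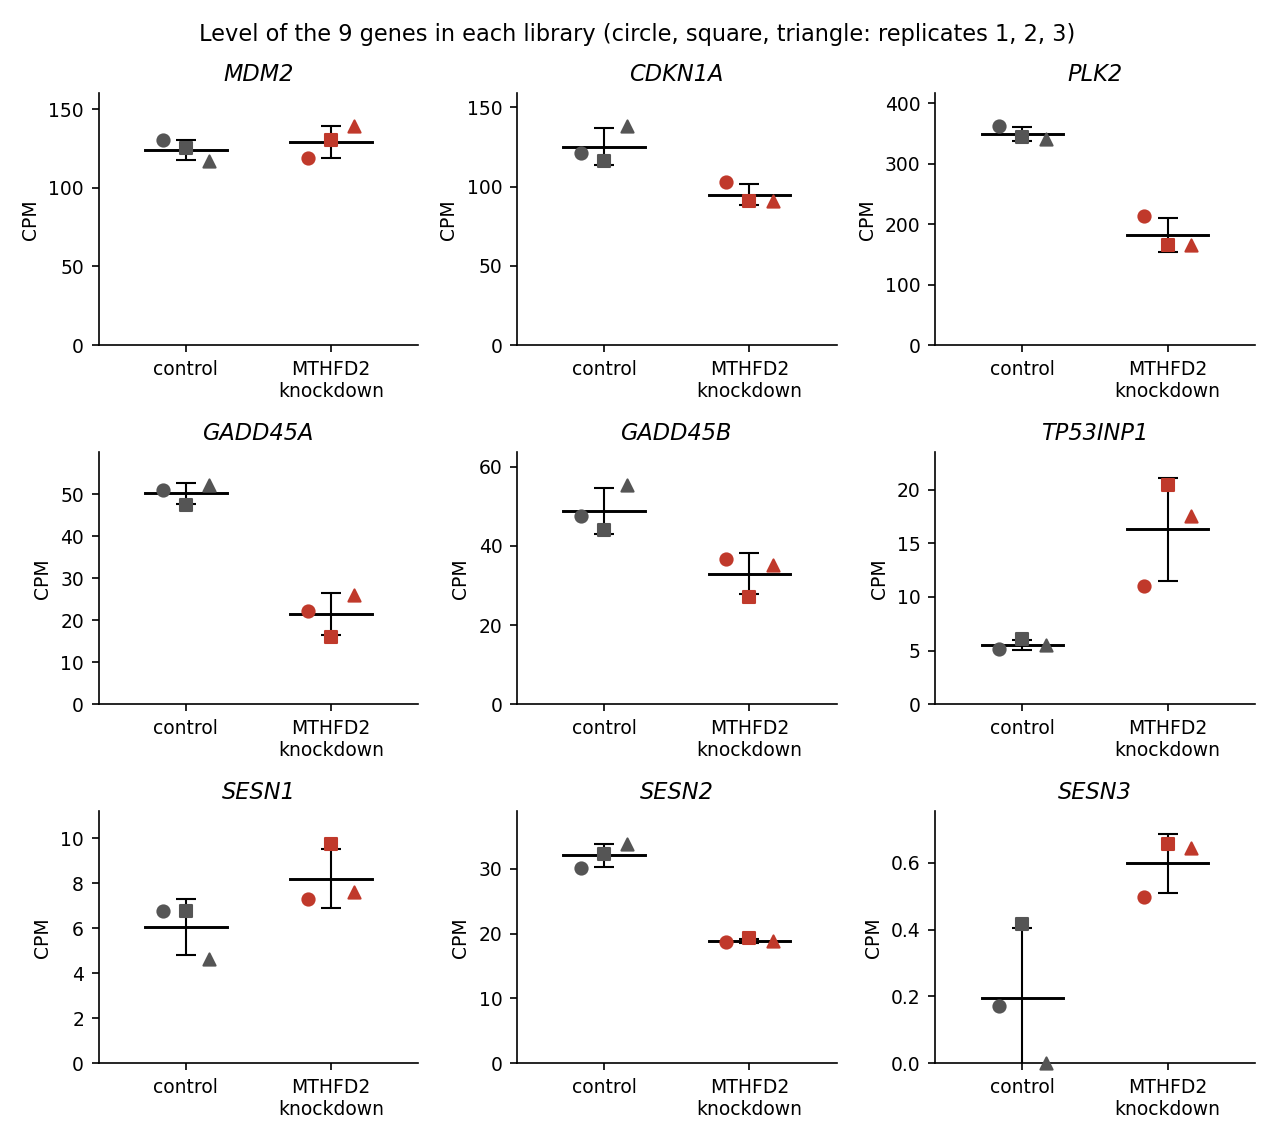
Level of each gene in CPM (vertical axes, each starting at 0) in the 3 control (grey) and 3 knockdown (red) libraries, with symbols for replicates 1 to 3, the group mean as a horizontal line and the SD as an error bar. GADD45A, PLK2 and SESN2 lie well below the controls in every knockdown library, TP53INP1 lies above them, and MDM2 overlaps between the groups.

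MDM2 (GRCh38 chromosome 12, 68808176 to 68850686, plus strand) encodes the ubiquitin ligase that holds p53 low and is itself a p53 target. Its level was 130, 125 and 117 CPM across the controls and 119, 130 and 139 CPM across the knockdown libraries. The groups overlapped, and the control library with the highest value matched the middle knockdown library. In edgeR this was a log2 fold change of 0.06 ± 0.10 (SE) at an adjusted p = 0.705, and leaving out any single library kept it between 0.00 and 0.12. This standard error leaves room for a small change.

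The p53 response of MDM2 is known to run through an internal promoter. Stretches of MDM2 and SESN1 are shown because these are the listed genes with p53-like letters in a promoter window. RefSeq promoter windows (GRCh38.p14, 250 bases before to 50 after a start) were found for 7 of the 9 genes, all but GADD45A and TP53INP1, in 12 windows, some of them overlapping. The search was for a p53 element of 20 bases, made of a pair of adjoining p53 consensus half-sites of 10 bases with no spacer and at most 3 mismatches, a pattern that reads the same on both strands. It is found in 5.2% of all 35116 windows of that length. Capitals mark the elements in these stretches at chr12:68808893-68809010 (plus strand, intronic) and chr6:109008989-109009066 (minus strand, intronic).
MDM2: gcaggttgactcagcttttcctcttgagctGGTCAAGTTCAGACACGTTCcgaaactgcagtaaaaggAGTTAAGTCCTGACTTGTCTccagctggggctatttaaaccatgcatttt
SESN1: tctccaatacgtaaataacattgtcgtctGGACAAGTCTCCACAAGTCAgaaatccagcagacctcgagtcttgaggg
The MDM2 stretch holds 2 elements, with 2 and 3 mismatches, and the SESN1 stretch holds 1, with 3 mismatches. The well known p53 sites of CDKN1A lie farther upstream than these windows reach. No window of the other 5 genes held such an element, which says only that these letters are not in those windows.

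CDKN1A (chromosome 6, 36676460 to 36687339, plus strand) encodes p21, the inhibitor of cyclin-dependent kinases that is the best known p53 target. It was at 121, 116 and 138 CPM across the controls and 103, 91.2 and 91.1 CPM across the knockdown libraries. Every knockdown library lay below every control, with knockdown replicate 1 nearest to them. The log2 fold change of -0.40 ± 0.11 (SE) passed at an edgeR adjusted p = 0.0265. That call did not hold when control replicate 1, control replicate 3 or knockdown replicate 2 was omitted (edgeR adjusted p = 0.0778, 0.121 and 0.0593). With knockdown replicate 2 alone the log2 fold change was -0.46. Per length, CDKN1A stood at 4.06, 4.05 and 5.16 times MDM2 among the controls and at 3.77, 3.06 and 2.85 times MDM2 after knockdown.

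PLK2 (chromosome 5, 58453982 to 58460260, minus strand), a Polo-like kinase induced by stress and by growth factors, fell to 0.52 of its control level. The control libraries held 362, 344 and 341 CPM and the knockdown libraries 214, 165 and 166 CPM. The gap between the groups was wide against the spread within them, and knockdown replicate 1 was the highest of its group. In edgeR this was a log2 fold change of -0.94 ± 0.12 (SE) at an adjusted p = 0.000663, between -1.08 and -0.88 when any single library was left out, and -1.08 with knockdown replicate 2 alone.

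GADD45A (chromosome 1, 67685061 to 67688338, plus strand) had the lowest fold change of the 8 tested genes. It went from 51.1, 47.5 and 52.1 CPM across the controls to 22.2, 16.1 and 26 CPM after knockdown. The control values lay close together, and knockdown replicate 2 was the lowest library. In edgeR this was a log2 fold change of -1.23 ± 0.15 (SE) at an adjusted p = 0.000695. It was -1.64 with knockdown replicate 2 alone, the knockdown library with the lowest sum of the 11 fibroblast markers.

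GADD45B (chromosome 19, 2476122 to 2478259, plus strand), the relative that NF-kB and TGF-beta signals are known to induce, fell to 0.674 of its control level. The control libraries held 47.6, 43.9 and 55.3 CPM and the knockdown libraries 36.7, 27 and 35.2 CPM. The groups did not overlap, and knockdown replicate 2 again lay lowest. In edgeR this was a log2 fold change of -0.57 ± 0.14 (SE) at an adjusted p = 0.0173, and -0.86 with knockdown replicate 2 alone. The call was not kept when control replicate 1 or 3 was omitted (edgeR adjusted p = 0.0509 and 0.078).

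Both GADD45 genes stood at nearly the same level per length in the control cells. Length here is the union of all annotated exons, 2069 bases for GADD45A and 2138 for GADD45B, where it covers the whole gene. It can exceed the transcript expressed, so levels per length compare different genes only roughly. Over exon length, GADD45A was at 24.3 ± 1.18 and GADD45B at 22.9 ± 2.71 RPKM (CPM per kilobase of exon, SD, n = 3). After knockdown they were at 10.4 ± 2.4 and 15.4 ± 2.45 RPKM. The ratio of GADD45A to GADD45B, both per kilobase, was 1.11, 1.12 and 0.974 among the controls and 0.624, 0.617 and 0.762 in the knockdown libraries. It was lower in all 3 knockdown libraries, and the exact two-sided permutation test gave p = 0.1, the smallest that 3 libraries against 3 allow. The same smallest p held for each of the 4 ratios computed between listed genes (p = 0.1 after Benjamini-Hochberg adjustment in the exact test), so none of these could pass.

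**Figure D2:**
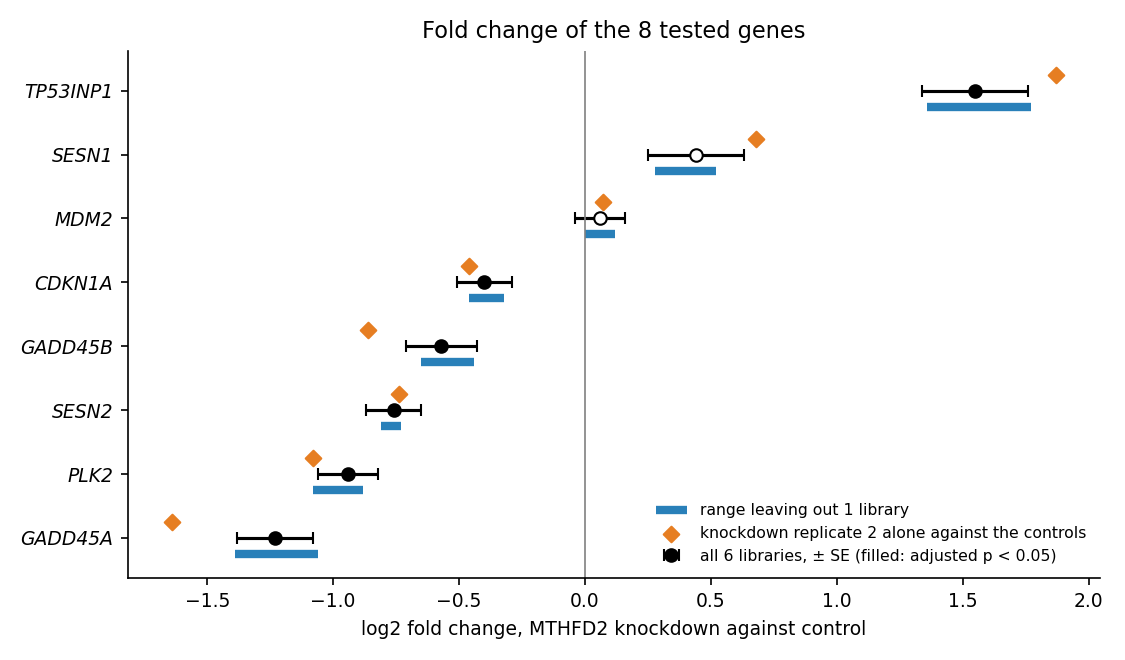
Log2 fold change (horizontal axis) of the 8 tested genes, with the edgeR estimate and its SE (circles), the range when any single library is left out (blue bars) and the value with knockdown replicate 2 alone (diamonds). TP53INP1 stays between 1.36 and 1.77 and GADD45A between -1.39 and -1.06 over the fits without a single library.

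TP53INP1 (chromosome 8, 94925972 to 94949411, minus strand), a p53-induced nuclear protein that acts in cell death and autophagy, was the listed gene that rose. Its counts were 90, 116 and 103 under control virus against 221, 404 and 327 under the hairpin, or 5.13, 6.03 and 5.47 CPM against 11, 20.4 and 17.5 CPM. The controls lay close together, while the knockdown libraries were spread out, with replicate 1 nearest to the controls. In edgeR this was a log2 fold change of 1.55 ± 0.21 (SE) at an adjusted p = 0.00103. It was 1.36 without knockdown replicate 2 and 1.87 with that library alone. Its level per length relative to MDM2 was 0.0925, 0.113 and 0.11 among the controls and 0.217, 0.367 and 0.295 after knockdown.

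Of the sestrins, SESN2 fell, SESN1 did not pass the test and SESN3 was near the limit of detection. SESN2 (chromosome 1, 28259527 to 28282491, plus strand), a sestrin that binds leucine, was at 30.2, 32.3 and 33.8 CPM across the controls and 18.7, 19.3 and 18.8 CPM across the knockdown libraries. The knockdown values lay close together, and the groups were far apart. In edgeR this was a log2 fold change of -0.76 ± 0.11 (SE) at an adjusted p = 0.00145, between -0.81 and -0.73 when any single library was left out and -0.74 with knockdown replicate 2 alone. SESN1 (chromosome 6, 108986437 to 109094819, minus strand), the sestrin first found as a p53 target, was at 6.78, 6.76 and 4.62 CPM across the controls and 7.31, 9.73 and 7.61 CPM across the knockdown libraries. All 3 knockdown values lay above the controls. Control replicate 3 was well below the other two controls, and knockdown replicate 2 was well above its group. The log2 fold change of 0.44 ± 0.19 (SE) did not pass (edgeR adjusted p = 0.134). It dropped to 0.28 without control replicate 3 and to 0.30 without knockdown replicate 2 (edgeR adjusted p = 0.428 and 0.373). With knockdown replicate 2 alone it was 0.68.

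SESN3 (chromosome 11, 95165513 to 95232541, minus strand), the sestrin that FOXO factors are known to raise, was almost silent. Its counts were 3, 8 and 0 under control virus against 10, 13 and 12 under the hairpin, 11 against 35 in all. Every knockdown library was above every control, at a level near the floor of 3 counts. Per sequencing depth the summed counts stood at a ratio of 3.02, with an exact binomial 95% interval of 1.5 to 6.59 that covers counting error only. Without the low-count filter edgeR put it at 1.56 ± 0.63 on the log2 scale (SE; adjusted p = 0.0925). It entered 4 of the 6 fits that leave out a library only through its counts in the knockdown libraries, so these fits give no test of it. Their estimates ran from 0.99 ± 0.57 without control replicate 3 to 2.75 ± 0.83 without control replicate 2, the control with the highest count.

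Per kilobase of exon, the 3 sestrins together were at 10.5 ± 0.356 RPKM in the control and 7.14 ± 0.345 RPKM in the knockdown libraries (SD, n = 3). SESN2 made up 86.7, 87.3 and 91.6% of that sum among the controls and 78.6, 74 and 77.9% after knockdown. SESN1 made up 13.1, 12.3 and 8.43% among the controls and 20.7, 25.2 and 21.2% after knockdown. The share of SESN2 was lower, and that of SESN1 higher, in every knockdown library than in every control. The ratio of SESN2 to SESN1 per kilobase averaged 8.18 ± 2.33 in the control and 3.47 ± 0.467 in the knockdown libraries (SD, n = 3; exact permutation p = 0.1, the smallest possible).

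**Figure D3:**
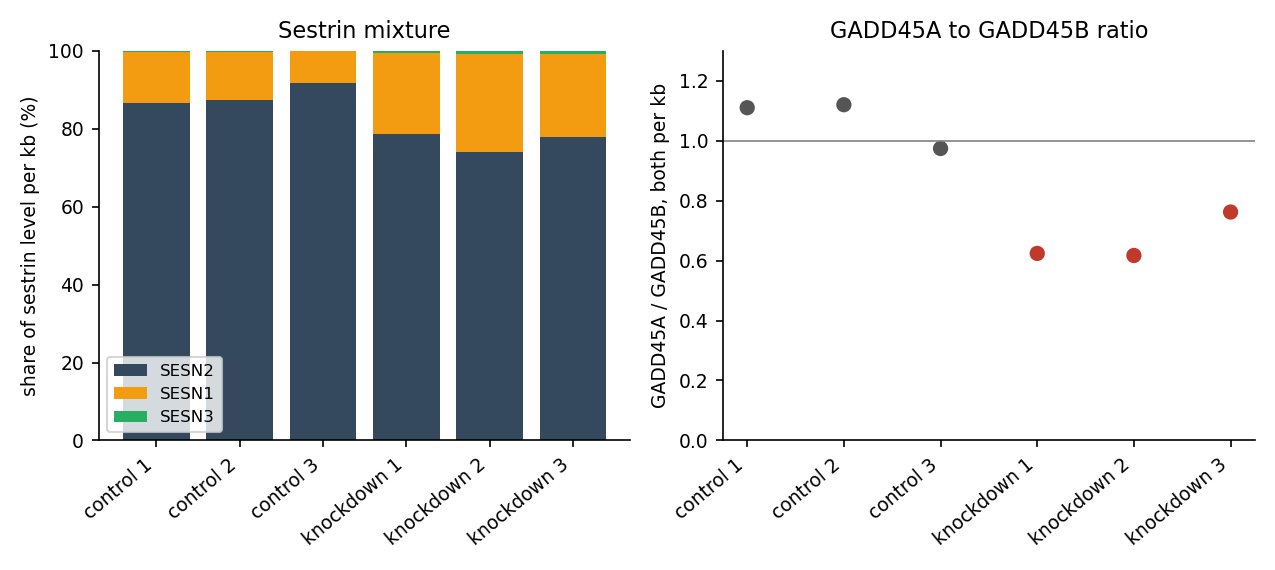
Left, share of each sestrin in the summed sestrin level per kilobase of exon (percent, stacked bars) in each library; right, ratio of GADD45A to GADD45B per kilobase in each library, with control libraries in grey and knockdown libraries in red. SESN1 takes 8.43 to 13.1% of the sum in the control and 20.7 to 25.2% in the knockdown libraries. The GADD45A to GADD45B ratio is 0.974 to 1.12 in the control and 0.617 to 0.762 in the knockdown libraries.

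Promoter stretches of 3 of the genes that fell are shown beside the p53 elements above, since these genes held no such element in their windows. Capitals mark TGACGT, the core of a cAMP response element, in PLK2 (chr5:58460146-58460175, minus strand, in an exon of a GENCODE transcript), a pair of inverted CCAAT boxes in SESN2 (chr1:28259347-28259456, plus strand, upstream of the gene), and TATAAA in GADD45B (chr19:2476076-2476121, plus strand, upstream of the gene).
PLK2: gggcataggccgTGACGTgatgtcgcgtat
SESN2: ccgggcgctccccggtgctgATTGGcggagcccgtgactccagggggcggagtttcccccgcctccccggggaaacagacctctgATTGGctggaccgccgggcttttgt
GADD45B: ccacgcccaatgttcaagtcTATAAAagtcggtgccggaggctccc
On both strands, TGACGT is found in 7.98%, CCAAT in 34.6% and TATAAA in 11.5% of all windows. CCAAT boxes were also in windows of MDM2, SESN1 and GADD45B, and those within the printed SESN1 and GADD45B stretches are left in lower case. The ATF4-type letters TGATGNAA (3.62% of all windows) and the FOXO-type letters GTAAACA (3.42%) were in none of the 12 windows. None of the matches overlapped a match of another motif, and a match describes letters only.

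In order of level per length, PLK2 was highest in the control libraries (73.2 ± 2.39 RPKM, SD, n = 3), followed by CDKN1A (41 ± 3.82), GADD45A and GADD45B. This order rests on the union exon lengths. MDM2 (9.32 ± 0.494) and SESN2 (9.3 ± 0.527) followed, then SESN1 (1.18 ± 0.242), TP53INP1 (0.977 ± 0.0802) and SESN3 (0.0185 ± 0.0198). Neighbours whose control libraries overlapped were GADD45A with GADD45B, MDM2 with SESN2, and SESN1 with TP53INP1. After knockdown PLK2 (38.1 ± 5.81) and CDKN1A (31.2 ± 2.19) still led without overlapping each other. GADD45B then stood above GADD45A with overlap, MDM2 (9.72 ± 0.774) overlapped with GADD45A and no longer with SESN2 (5.48 ± 0.0813), and TP53INP1 (2.87 ± 0.847) stood above SESN1 (1.6 ± 0.258) without overlap.

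Genes with the most similar course over the 6 libraries were ranked by the root mean square distance between centred log2 CPM profiles, among 10746 genes whose mean log2 CPM was 2 or more. TP53INP1 was nearest to DACH1 (0.078) and TNFSF15 (0.104), against a median distance of 0.816 over all compared genes. GADD45A was nearest to SGK1 (0.119) and SLC3A2 (0.13, median 0.661), PLK2 to PPME1 (0.061) and BCAR3 (0.062, median 0.501), and SESN2 to CORO2B (0.045) and DKK1 (0.059, median 0.396). GADD45B lay nearest to EIF5A (0.025), SESN1 to TAB3 (0.041) and MDM2 to ANKRD13C (0.018). With 6 points in 2 groups, such a distance mainly ranks genes by an equal shift between the groups.

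Around these genes, 166 further genes of the pathway were placed in 9 lists, and 152 of them were tested. The lists too were chosen with earlier results known, so their shares are no test of them. Of the 152 genes, 15 rose and 22 fell, or 24.3%, beside 17.3% of all genes tested. Their median log2 fold change was -0.06. The share that passed ran from 11.8% of the death targets to 50% of the other factors known to regulate sestrins or GADD45 genes. The lists held 3 to 31 tested genes. The 37 calls became 17 without control replicate 1 and 13 without control replicate 3.

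Other p53 targets passed the test at a share close to that of all genes. Of 50 tested in 3 lists, 2 rose and 7 fell, or 18% beside 17.3%, with a median log2 fold change of -0.09. The lists do not sort targets by whether p53 raises or lowers them. PLK1, among the 7 that fell, is in the arrest list and again with the Polo-like kinases. Arrest and checkpoint targets (15 tested, 1 higher, 3 lower, median 0.10) included SFN, the 14-3-3 sigma protein that holds cells in G2, which fell from 230 ± 30.6 to 126 ± 25.5 CPM (SD, n = 3; log2 fold change -0.87 ± 0.15 SE, edgeR adjusted p = 0.00312). SERTAD1 fell by 0.71 ± 0.17 on the log2 scale, a call lost without control replicate 3 (edgeR adjusted p = 0.0711). The stress cytokine GDF15 rose by 0.35 ± 0.11, which edgeR no longer called in 5 of the 6 fits omitting a library (adjusted p up to 0.196) and with RLE scaling, voom or knockdown replicate 2 alone. Death targets (17 tested, 1 higher, 1 lower, median -0.18) included the nuclease AEN, which fell by 0.69 ± 0.14, and the junction protein PERP, which rose by 0.43 ± 0.14, also no longer called in 5 of the 6 edgeR fits omitting a library (adjusted p up to 0.146), with RLE scaling or with voom, and at 0.26 without knockdown replicate 3. The classical death genes BAX (-0.42, edgeR adjusted p = 0.0731), BBC3 (-0.12), PMAIP1 (-0.11) and FAS (-0.23), chosen after their values were seen, did not pass.

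Repair and metabolism targets (18 tested, 0 higher, 3 lower, median -0.05) included SCO2, an assembly factor of cytochrome c oxidase, at -0.74 ± 0.17, the peroxidase GPX1 at -0.51 ± 0.15 and the AMPK subunit PRKAB1 at -0.48 ± 0.12. The call of SCO2 was lost without control replicate 3 (edgeR adjusted p = 0.063), that of PRKAB1 when control replicate 1 or 3 was omitted (edgeR adjusted p = 0.0602 and 0.0842), and that of GPX1 in 4 of the 6 edgeR fits omitting a library (adjusted p up to 0.175). With knockdown replicate 2 alone GPX1 was at -0.85. The repair genes RRM2B and DDB2, also chosen after their values were seen, were at 51.8 and 34.9 CPM across the controls and 51.7 and 34.5 CPM across the knockdown libraries.

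Regulators of p53 (20 tested, 3 higher, 1 lower, median 0.00) included the kinase HIPK2, which rose by 0.74 ± 0.17, and the deubiquitinase USP2, which rose by 1.38 ± 0.34 from 0.56 to 1.47 CPM. Without control replicate 3 neither passed (edgeR adjusted p = 0.0514 for HIPK2 and 0.0901 for USP2). With knockdown replicate 2 alone HIPK2 was at 1.12. The acetyltransferase KAT5 was at -0.36 ± 0.11, a call lost in 5 of the 6 edgeR fits omitting a library (adjusted p up to 0.154). Polo-like kinases other than PLK2 numbered 3 tested, of which PLK1 fell (-0.42 ± 0.12), a call lost in 5 of the 6 edgeR fits omitting a library (adjusted p up to 0.104).

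Partners of the sestrins in amino acid sensing (31 tested, 4 higher, 4 lower, median -0.04) went both ways. BMT2, which encodes the methionine sensor SAMTOR, rose by 0.73 ± 0.16 (edgeR adjusted p = 0.0108), and the table's GATSL2, now named CASTOR2, by 0.60 ± 0.12, a call lost without control replicate 1 (edgeR adjusted p = 0.0509). Folliculin, FLCN, which acts on the Rag GTPases, fell by 0.71 ± 0.13 (edgeR adjusted p = 0.00446). Among GADD45 relatives and partners (15 tested, 1 higher, 1 lower, median -0.07), the kinases that activate p38 went in opposite directions. MAP2K6 rose by 1.93 ± 0.28, from 1.42 ± 0.519 to 5.4 ± 1.04 CPM (SD, n = 3; edgeR adjusted p = 0.00162). The far more abundant MAP2K3 fell by 0.48 ± 0.11, from 117 ± 8.8 to 84.4 ± 9.29 CPM (SD, n = 3). The call of MAP2K3 was not kept when control replicate 1 or 3 was omitted (edgeR adjusted p = 0.053 and 0.0688).

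Partners of p21 (18 tested, 2 higher, 3 lower, median -0.11) included SKP2, a subunit of the ligase that degrades p21 and p27, which fell by 0.65 ± 0.11 (edgeR adjusted p = 0.00312), and E2F4, a repressor of the E2F family, which fell by 0.61 ± 0.13 (edgeR adjusted p = 0.00893). The cyclin CCND2 rose by 1.73 ± 0.38 from a low 0.444 CPM, a call not kept when control replicate 1 or 3 was omitted (edgeR adjusted p = 0.0581 and 0.055). Other factors known to regulate sestrins or GADD45 genes (18 tested, 3 higher, 6 lower, median -0.05) went both ways. The FOXO factors FOXO4 and FOXO1 rose by 1.31 ± 0.21 and 1.03 ± 0.16. CEBPB fell by 1.12 ± 0.15, from 61.8 ± 10.1 to 28.4 ± 4.42 CPM (SD, n = 3; edgeR adjusted p = 0.00079). ATF4 mRNA, chosen after its values were seen, was at 502 CPM across the controls and 500 CPM across the knockdown libraries. ATF4 protein was not measured. The other called genes of this list, added after their values were seen, were EGR1 (log2 fold change 0.71), DDIT3 (-0.96), WT1 (-0.47), RELA (-0.41), NFKB1 (-0.38) and MYC (-0.38). They were not followed through the alternative fits. The plot of these lists shows calls on both sides of 0 in most of them.

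**Figure D4:**
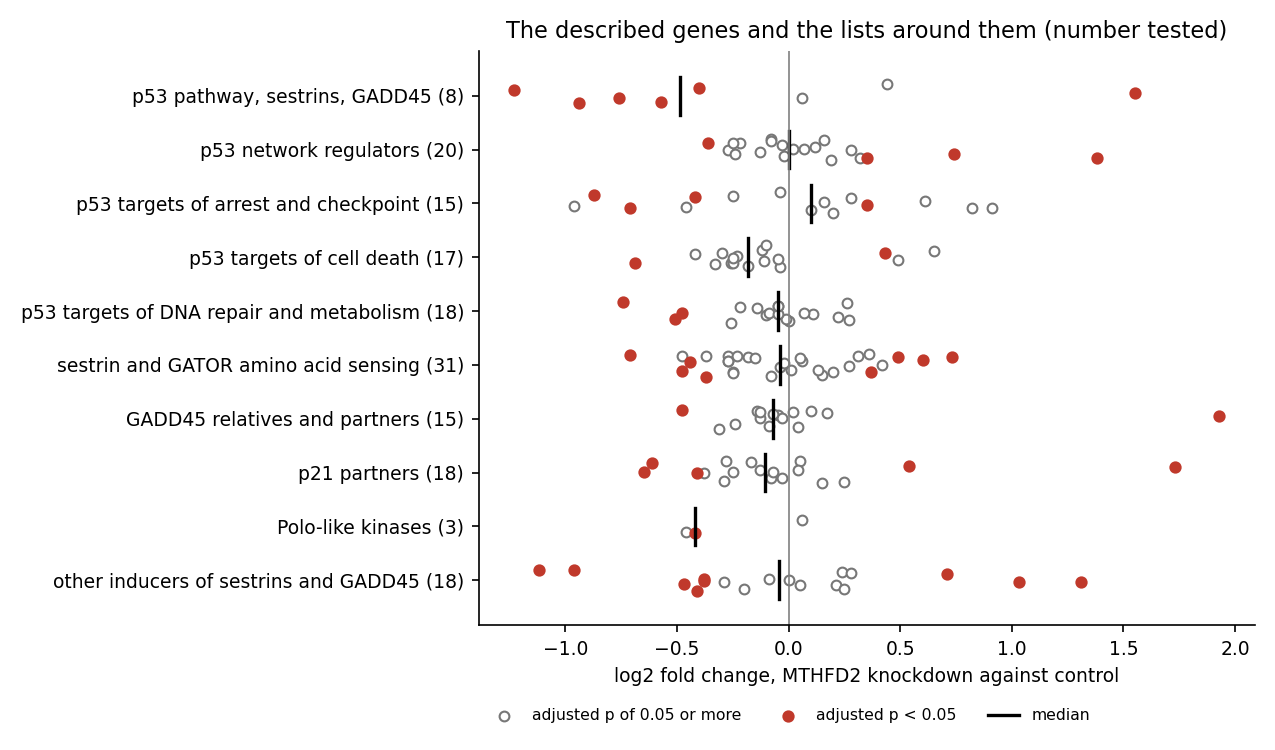
Log2 fold change (horizontal axis) of each tested gene in the described group and in the 9 lists around it, with genes past an edgeR adjusted p of 0.05 filled and list medians as black bars. List medians lie between -0.18 and 0.10, apart from the Polo-like kinases (-0.42, 3 genes), and the described genes have a median of -0.48.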

How the data were processed

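For each gene symbol the authors deposited a raw whole-number count in each of 6 libraries. The submitters' processing notes name HISAT2 2.0.4 and GRCh38. For the counting tool, annotation and strandedness, nothing is given in the sources used here, and reads of overlapping genes on opposite strands cannot be told apart. From these counts, filterByExpr selected 13896 genes, TMM scaled them, and glmQLFit (robust) with glmQLFTest of edgeR 4.0.16 in R 4.3.3 tested them (adjusted p under 0.05). An SE is the size of a log2 fold change over the root of F. Log2 CPM used a prior count of 2. Exon lengths and coordinates came from GENCODE release 29 on GRCh38, promoter sequences from RefSeq. An exon length is the union of all exons of a gene, which bears on ratios, shares and orders between genes.

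The genes and lists were chosen with earlier results of these data known. Up to 3 genes past the threshold were named from each list by size, with both directions present. Alternatives were RLE scaling, DESeq2 1.42.0, voom (limma 3.58.1), other filters, the replicate number as a block, libraries left out and a threshold of 0.01. The fit by edgeR was tried on simulated counts for knockdown against control (13896 genes, 200 of them changed). It recovered 60% of the 1.5-fold and 84% of the 2-fold changes, and 7.22% of its calls were unchanged genes. Each gene was simulated independently and fewer genes changed than were called in the data, so these rates may not carry over. Replicates all differed beyond counting noise, with chi-square over degrees of freedom from 2.63 to 34.7.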

Additional observations from a re-analysis of the deposited data

How the results depend on the processing

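Of the 8 tested genes, 6 passed with all libraries, and between 4 and 7 passed under the alternatives. TP53INP1, GADD45A, PLK2 and SESN2 passed in all 13 alternative fits, and MDM2 in none. Over all named genes, 382 of 429 alternative values kept their direction and side of the threshold, 45 lost the call, 2 gained it (both SESN1) and 0 changed direction. The count of changed genes was 986 to 2645 when any single library was left out, 4390 with knockdown replicate 2 alone and 749 at a threshold of 0.01, beside 2402. The count of changed pathway genes, 37 with all libraries, was 13 to 37, 57 and 12 in the same order. Deviations of same-numbered libraries correlated at 0.297 and 0.353 for numbers 2 and 3 but at -0.0204 for number 1, where neither library correlated best with its own number, so the numbers were not taken as a pairing. With the replicate number as a block, 5062 genes and 68 pathway genes passed, and SESN1 passed (0.45, edgeR adjusted p = 0.021). In that fit the edgeR adjusted p of MTHFD2 went from 1.8e-06 to 5.09e-132, while its SE only went from 0.13 to 0.1. Without the low-count filter and without a block it was 2.76e-80. The added calls therefore cannot be credited to the replicate numbers alone. SESN3 could be fitted only without the low-count filter or without some libraries. Below the floor of 3 counts nothing could be measured.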
